A study of Mus musculus with 15 samples.

Results

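The Polycomb repressive complexes keep developmental genes silent, and 32 mouse genes that encode their components were followed through knockdown of Tet1 and of Sin3a in embryonic stem cells. The genes were chosen by symbol, all 32 were found among the 21212 probe sets of the array, and each had 1 probe set. The cells were E14TG2a.4, a mouse embryonic stem cell line grown at passage 17 on gelatin, without feeder cells, in 15% serum with leukaemia inhibitory factor. Lentivirus made with the pLKO.1 vector had delivered a hairpin RNA (shRNA) that cells process into a silencer of the matching transcript, and puromycin at 2 µg per ml had been added 36 hours after transduction and kept for 72 hours, in every group alike. The groups were Tet1 shRNA 4, Tet1 shRNA 5 and their scrambled hairpin in the Tet1 set of 9 arrays, and Sin3A shRNA and its own scrambled hairpin in the Sin3A set of 6 arrays, with 3 arrays a group. Sin3a was targeted with 1 hairpin only. The TET1 protein oxidises methylated cytosine in DNA. SIN3A is a scaffold on which histone deacetylases and their partners assemble into a co-repressor.

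Polycomb repressive complex 2 (PRC2) methylates lysine 27 of histone H3 through EZH1 or EZH2, and PRC1 ubiquitinates histone H2A through RING1 or RNF2. Canonical PRC1 carries a CBX protein, which binds the PRC2 mark, together with a PHC protein, while variant PRC1 carries RYBP or YAF2 and a different PCGF protein. In embryonic stem cells both complexes sit mainly at unmethylated, CG-rich promoters, where TET1 is also known to bind.

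Values are log2 expression levels, and a log2 change is the mean of the knockdown arrays minus the mean of the scrambled arrays of the same set. Changes were tested with limma, with p-values adjusted over all probe sets by the Benjamini-Hochberg method and called at an adjusted p under 0.05. The hairpins lowered their targets: Tet1 fell by 1.78 with Tet1 shRNA 4 and by 2.10 with Tet1 shRNA 5, and Sin3a fell by 1.55 with Sin3A shRNA. Sin3a was itself lower in both Tet1 knockdowns (log2 change -0.27 and -0.24, limma adjusted p = 0.0147 and 0.0219, up to 0.0868 with 1 array left out), and Tet1 was higher in the Sin3A knockdown (log2 change 0.31, limma adjusted p = 0.0068). All 12 embryonic stem cell markers lay above the median probe set in each of the 5 groups, and between 3 and 4 of 10 fibroblast markers did. Of the 12 stem cell markers 2 rose and 0 fell with each Tet1 hairpin, and 1 rose and 2 fell with Sin3A shRNA. Of 5 neuroectoderm markers 3 fell in each knockdown, with mean levels per array of 7.23 to 7.31 with Tet1 shRNA 4 and 7.34 to 7.40 with Tet1 shRNA 5, against 7.58 to 7.64 in scrambled arrays, and of 8.07 to 8.10 with Sin3A shRNA, against 8.36 to 8.45 in scrambled arrays. Of 8 trophectoderm markers 2 rose and 3 fell in each Tet1 knockdown and 1 rose and 4 fell with Sin3A shRNA. Their mean levels were 7.10 to 7.16 with Tet1 shRNA 4 and 7.20 to 7.24 with Tet1 shRNA 5, against 7.23 to 7.42 in scrambled arrays, and 8.40 to 8.44 with Sin3A shRNA, against 8.72 to 8.77 in scrambled arrays. Of 11 primitive endoderm markers 3 rose and 1 fell with Tet1 shRNA 4, 2 rose and 2 fell with Tet1 shRNA 5, and 2 rose and 1 fell with Sin3A shRNA. Of all probe sets 11.6%, 13.8% and 24.8% were called in these comparisons. The 11 markers averaged 7.28 to 7.35 with Tet1 shRNA 4 and 7.26 to 7.32 with Tet1 shRNA 5, against 7.10 to 7.28 in scrambled arrays, and 8.30 to 8.32 with Sin3A shRNA, against 8.24 to 8.30 in scrambled arrays. The part of these shifts in the Polycomb changes was not tested. In bulk RNA, fewer cells of a type and less RNA per cell cannot be told apart. Replicate arrays correlated with r from 0.994 to 0.998. The arrays numbered 2 of scrambled and of Tet1 shRNA 4 departed from their group means in the same way (r = 0.517 across probe sets). These arrays gave the lowest level of their group for 17 and 18 of the 32 Polycomb genes and the highest for 11 and 10. Their SDs over all probe sets, 2.19 and 2.21, were the lowest of the Tet1 set, where the highest was 2.27. Sin3A shRNA replicate 1 was also lowest of its group for 17 genes. The calls among the 32 genes, 2 of the paralogue differences and the counts of the pathway lists in the Tet1 set are also given without both arrays.

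Most Polycomb components moved little. With Tet1 shRNA 4, 1 gene rose (Cbx2) and 2 fell (Cbx6 and Scmh1), which is 9.38% of the 32, against 11.6% of all probe sets called in that comparison. With Tet1 shRNA 5, 2 rose (Cbx2 and Bcor) and 1 fell (Cbx6), again 9.38%, against 13.8% of all probe sets. With Sin3A shRNA, 2 rose (Phc3 and Yaf2) and 5 fell (Pcgf1, Scmh1, Cbx6, Bcor and Pcgf6), which is 21.9%, against 24.8% of all probe sets. The share of Polycomb components called thus lay near or under the background in all 3 comparisons. By direction, the background was 6.88% higher and 4.71% lower with Tet1 shRNA 4, 8.37% higher and 5.46% lower with Tet1 shRNA 5, and 12.2% higher and 12.6% lower with Sin3A shRNA.

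The log2 changes of the 32 genes ran between -0.24 and 0.39 with Tet1 shRNA 4, between -0.23 and 0.49 with Tet1 shRNA 5 and between -0.34 and 0.47 with Sin3A shRNA. Their medians were -0.01, 0.03 and 0.00, against 0.00 (rounded) for all probe sets with each Tet1 hairpin and 0.01 with Sin3A shRNA. Within 0.25 of no change on the log2 scale were 30, 28 and 28 of the 32 genes, and none passed 0.5. The median standard error of a change was 0.07 in the Tet1 set and 0.06 in the Sin3A set. Without both arrays numbered 2, the Tet1 shRNA 4 comparison called Cbx2 and Pcgf3, and the Tet1 shRNA 5 comparison called Cbx2, Cbx8 and Ezh1. The Tet1 comparisons share their 3 scrambled arrays, so their values stand side by side and do not count as independent. Whether a group's arrays stem from separate cultures is not stated in the labels, so its spread, on which every p-value rests, may be technical.

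**Figure D1:**
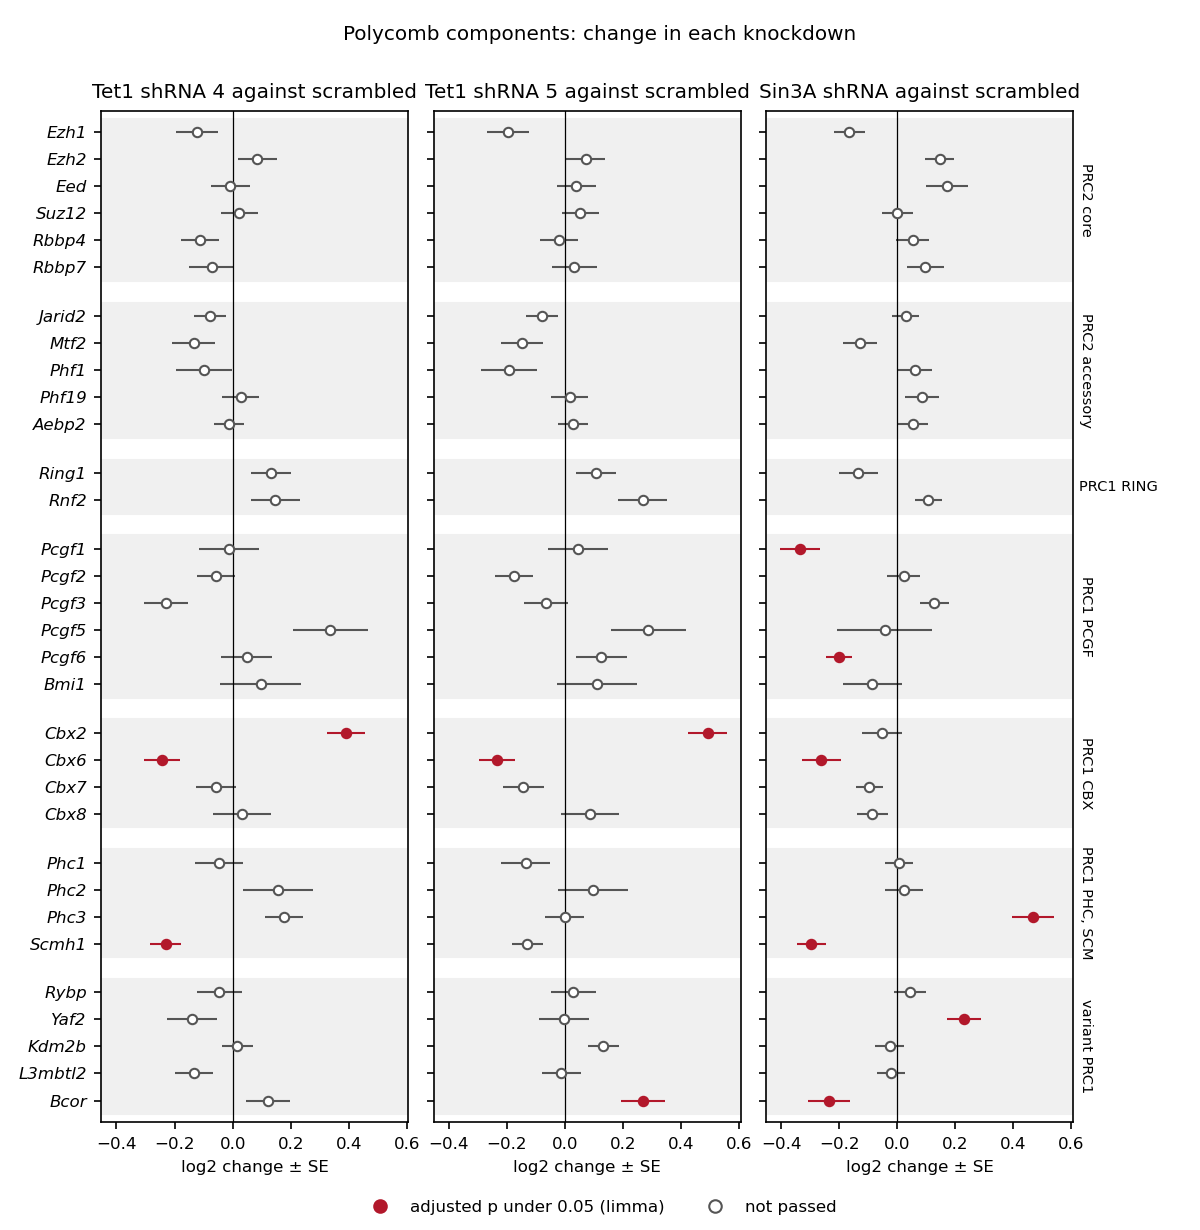
Log2 change with its standard error (x axis) of each of the 32 Polycomb components (y axis, ordered by role) in the Tet1 shRNA 4, Tet1 shRNA 5 and Sin3A shRNA arrays, each against 3 scrambled arrays. Filled red points passed an adjusted p under 0.05 in limma, 3, 3 and 7 of 32, and no point lies beyond 0.5 on the log2 scale in either direction.

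None of the 6 genes of the PRC2 core was called in any knockdown. EZH2 is the main H3K27 methyltransferase of embryonic stem cells, EED reads the mark, and SUZ12 holds the complex together. Ezh2 had levels of 12.10, 11.96 and 12.09 with Tet1 shRNA 4 and 12.03, 12.05 and 12.03 with Tet1 shRNA 5, against 12.02, 11.85 and 12.02 in scrambled arrays. In the Sin3A set Ezh2 had 12.54, 12.58 and 12.61 with Sin3A shRNA, against 12.42, 12.47 and 12.41 in scrambled arrays. The Tet1 shRNA 5 and Sin3A shRNA arrays all lay above their scrambled arrays, by a small margin, and Tet1 shRNA 4 overlapped. The log2 change of Ezh2 was 0.09 ± 0.07 (SE), 0.07 ± 0.07 and 0.15 ± 0.05 with Tet1 shRNA 4, Tet1 shRNA 5 and Sin3A shRNA, and none passed (limma adjusted p = 0.53, 0.58 and 0.065). Taking Ezh2, Eed and Suz12 together, the changes ran from -0.01 to 0.09 with Tet1 shRNA 4, from 0.04 to 0.07 with Tet1 shRNA 5 and from 0.00 to 0.17 with Sin3A shRNA. Their 95% intervals reached from -0.16 to 0.24, from -0.11 to 0.22 and from -0.12 to 0.34, so a change of 0.5 on the log2 scale lies outside all of them.

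Ezh1, the weaker methyltransferase paralogue, had levels of 8.77, 8.94 and 8.83 with Tet1 shRNA 5 and 8.96, 8.85 and 8.95 with Tet1 shRNA 4, against 9.07, 8.94 and 9.12 in scrambled arrays. With Sin3A shRNA it had 9.86, 9.77 and 9.80, against 9.99, 10.01 and 9.92 in scrambled arrays. The Sin3A shRNA arrays lay entirely under their scrambled arrays, while both Tet1 groups overlapped theirs. None of its changes passed (log2 change -0.12, -0.20 and -0.16 with Tet1 shRNA 4, Tet1 shRNA 5 and Sin3A shRNA, limma adjusted p = 0.36, 0.11 and 0.057). The histone-binding subunits Rbbp4 and Rbbp7, which serve other chromatin complexes as well, changed by -0.11 and -0.07, by -0.02 and 0.03, and by 0.05 and 0.10 in the same order of hairpins. None of the 6 core genes was called in limma, and at an unadjusted p under 0.05 there were 0, 1 (Ezh1) and 3 (Ezh1, Ezh2 and Eed). The share of all probe sets at that unadjusted threshold was not computed, and with Sin3A shRNA 24.8% of them passed even the adjusted one. Ezh1 and Ezh2 each passed in 2 of 12 alternatives of the Sin3A comparison. These were an intensity trend with a robust prior in limma, and the dimmest probe sets left out. With Tet1 shRNA 5, Ezh1 passed in 4 of 14 alternatives, among them without replicate 2 of the scrambled arrays.

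Accessory subunits guide PRC2 to its targets. JARID2 and AEBP2 form one class, and the Polycomb-like proteins MTF2, PHF1 and PHF19, which bind CG-rich DNA, form the other. None of these 5 genes was called in limma in any of the 3 comparisons, nor had any an unadjusted p under 0.05. Jarid2 had 12.48, 12.50 and 12.43 with Tet1 shRNA 4 and 12.42, 12.51 and 12.48 with Tet1 shRNA 5, against 12.58, 12.54 and 12.53 in scrambled arrays. Every Tet1 knockdown array lay under every scrambled array for Jarid2, yet the log2 change was only -0.08 ± 0.05 with each hairpin (SE, limma adjusted p = 0.45 and 0.43). Mtf2, the main Polycomb-like protein of these cells, changed by -0.13, -0.15 and -0.13 with Tet1 shRNA 4, Tet1 shRNA 5 and Sin3A shRNA (limma adjusted p = 0.32, 0.25 and 0.15). Phf1 changed by -0.10 and -0.19 with the Tet1 hairpins and by 0.06 with Sin3A shRNA, and its scrambled replicate 2 stood apart at 7.44, against 7.11 and 7.08 in the other scrambled arrays. Phf19 and Aebp2 stayed between -0.01 and 0.09 in all 3 comparisons. Phf19 was listed at 7.36 in several of the 9 arrays of the Tet1 set. Such ties occurred for 13 of the 32 Polycomb genes and for 49.1% of all probe sets in that set and for none in the Sin3A set, so small differences of tied genes have little resolution there.

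The catalytic RING proteins of PRC1 were not called. Rnf2, which encodes RING1B, the dominant H2A ubiquitin ligase of embryonic stem cells, had 11.24, 11.19 and 11.10 with Tet1 shRNA 5 and 11.10, 10.96 and 11.12 with Tet1 shRNA 4, against 11.04, 10.75 and 10.93 in scrambled arrays. All Tet1 shRNA 5 arrays exceeded the scrambled arrays, of which replicate 2 was lowest. The log2 change was 0.15 ± 0.08 with Tet1 shRNA 4, 0.27 ± 0.08 with Tet1 shRNA 5 and 0.11 ± 0.05 with Sin3A shRNA (SE, limma adjusted p = 0.35, 0.066 and 0.14). The Tet1 shRNA 5 value passed in 4 of 14 alternative settings. Its paralogue Ring1 changed by 0.13, 0.11 and -0.13 in the same order, none of which passed.

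PCGF proteins decide which kind of PRC1 forms: BMI1 and PCGF2 belong to canonical PRC1, PCGF1 to PRC1.1 with KDM2B and BCOR, PCGF3 and PCGF5 to a variant complex with AUTS2, and PCGF6 to PRC1.6 with L3MBTL2. None of the 6 was called with either Tet1 hairpin, and with Sin3A shRNA Pcgf1 and Pcgf6 fell. Pcgf1 had 8.81, 8.87 and 8.65 with Sin3A shRNA, against 9.06, 9.12 and 9.15 in scrambled arrays. All 3 knockdown arrays were under the lowest scrambled array, and the log2 change was -0.34 ± 0.07 (SE, limma adjusted p = 0.0098), a call that held in all 12 alternatives. With the Tet1 hairpins Pcgf1 changed by -0.01 and 0.04, and its groups overlapped.

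Pcgf6 had 11.54, 11.52 and 11.52 with Sin3A shRNA, against 11.71, 11.75 and 11.71 in scrambled arrays. The groups were tight and apart, with a log2 change of -0.20 ± 0.05 (SE, limma adjusted p = 0.0154), though the call was lost in 3 of 12 alternatives, among them without Sin3A shRNA replicate 2 (limma adjusted p = 0.0659). In the Tet1 set its groups overlapped. Pcgf3 had 9.20, 9.30 and 9.18 with Tet1 shRNA 4, against 9.55, 9.35 and 9.48 in scrambled arrays. The Tet1 shRNA 4 arrays were all lower but the change of -0.23 ± 0.08 did not pass (SE, limma adjusted p = 0.086), and it passed in 4 of 14 alternatives, among them without scrambled replicate 2. With Tet1 shRNA 5 Pcgf3 changed by -0.07, and with Sin3A shRNA by 0.13 (limma adjusted p = 0.107).

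Pcgf5 and Bmi1 had the largest standard errors of the 32 genes in both sets. Pcgf5 had 6.94, 6.76 and 7.21 with Tet1 shRNA 4 and 6.85, 6.96 and 6.95 with Tet1 shRNA 5, against 6.74, 6.38 and 6.78 in scrambled arrays. Tet1 shRNA 5 lay above the scrambled arrays and Tet1 shRNA 4 overlapped them. Its changes, 0.34 ± 0.13 and 0.29 ± 0.13 (log2, SE), come next to Cbx2 in size and did not pass (adjusted p in limma of 0.14 and 0.197). Bmi1 changed by 0.10 and 0.11 with an SE of 0.14, and its scrambled replicate 2 was at 5.83, against 6.30 and 6.39 in the others. Pcgf2 changed by -0.06, -0.18 and 0.02 with Tet1 shRNA 4, Tet1 shRNA 5 and Sin3A shRNA. With Tet1 shRNA 5 all 3 arrays of Pcgf2, at 9.33, 9.23 and 9.35, lay under the scrambled arrays, at 9.44, 9.56 and 9.42, and the limma adjusted p was 0.116.

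Cbx2 held the clearest response to Tet1 knockdown, which the other CBX genes did not share. The median log2 change of the 4 CBX genes was -0.01 with Tet1 shRNA 4 and -0.03 with Tet1 shRNA 5. CBX2 compacts chromatin and CBX7 is the main CBX protein of undifferentiated embryonic stem cells, whereas CBX2 and CBX8 are known to take over during differentiation. Cbx2 had 9.50, 9.65 and 9.50 with Tet1 shRNA 4 and 9.73, 9.63 and 9.60 with Tet1 shRNA 5, against 9.12, 9.16 and 9.21 in scrambled arrays. Every knockdown array exceeded every scrambled array by a margin wider than the spread within any of the 3 groups. The change was 1.31-fold (log2 0.39 ± 0.07 SE, limma adjusted p = 0.0039) with Tet1 shRNA 4 and 1.41-fold (log2 0.49 ± 0.07 SE, limma adjusted p = 0.0010) with Tet1 shRNA 5, and both calls held in all 14 alternatives. Without both arrays numbered 2 the log2 changes were 0.34 and 0.49. With Sin3A shRNA Cbx2 had 10.26, 10.20 and 10.07, against 10.26, 10.13 and 10.30 in scrambled arrays. The groups overlapped, with a log2 change of -0.05 ± 0.07 (SE, limma adjusted p = 0.65).

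Cbx6, the CBX member whose role is least settled, was the only one of the 32 genes called in all 3 knockdowns, and it was lower in each. It had 8.91, 8.82 and 8.83 with Tet1 shRNA 4 and 8.80, 8.89 and 8.90 with Tet1 shRNA 5, against 9.03, 9.09 and 9.17 in scrambled arrays. With Sin3A shRNA it had 9.24, 9.36 and 9.43, against 9.69, 9.59 and 9.53 in scrambled arrays. No knockdown array reached its scrambled arrays. The log2 changes were -0.24 ± 0.06, -0.23 ± 0.06 and -0.26 ± 0.07 (SE, limma adjusted p = 0.0328, 0.0335 and 0.0257). These calls lie near the threshold: they were lost in 7 of 14, 8 of 14 and 5 of 12 alternatives. Leaving out any array of Tet1 shRNA 4 or scrambled replicate 3 ended the call with Tet1 shRNA 4 (limma adjusted p up to 0.117). With Tet1 shRNA 5 any of its arrays or scrambled replicate 2 or 3 did (up to 0.121), and with Sin3A shRNA replicate 1 or 2 of either group did (up to 0.0916).

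Cbx7 changed by -0.06 ± 0.07, -0.14 ± 0.07 and -0.10 ± 0.05 (SE) with Tet1 shRNA 4, Tet1 shRNA 5 and Sin3A shRNA, and Cbx8 by 0.03, 0.09 and -0.09. Neither was called in any comparison. For Cbx8 the scrambled replicate 2 of the Tet1 set, at 6.81, stood far above the others, at 6.46 and 6.40, and without it Cbx8 passed with Tet1 shRNA 5. Since the levels of different probe sets cannot be compared, paralogues were set against each other only as the change of their difference within an array. Of 9 such pairs, the groups stood apart for 2 with Tet1 shRNA 4, 4 with Tet1 shRNA 5 and 4 with Sin3A shRNA, and no p-value was computed. Of all single probe sets, 25%, 28.9% and 40.5% stood apart in the same comparisons. The share over pairs of other genes was not computed, so groups apart do not single out these pairs. The difference Cbx7 minus Cbx2 was 0.45 lower on the log2 scale with Tet1 shRNA 4 and 0.63 lower with Tet1 shRNA 5 than in scrambled arrays, with no overlap of arrays, which shows unequal change. With Sin3A shRNA it moved by -0.04 and the groups overlapped. Ezh2 minus Ezh1 was higher by 0.21, 0.27 and 0.31 with Tet1 shRNA 4, Tet1 shRNA 5 and Sin3A shRNA, and the arrays did not overlap in any of the 3 comparisons. Here neither gene was called alone. Mtf2 minus Phf19 was lower by 0.16, 0.17 and 0.21, and its groups stood apart only with Sin3A shRNA. The others that stood apart were Cbx7 minus Cbx8 (-0.23) and Phc1 minus Phc2 (-0.23) with Tet1 shRNA 5, and Rnf2 minus Ring1 (0.24) and Rybp minus Yaf2 (-0.19) with Sin3A shRNA. Without both arrays numbered 2, Cbx7 minus Cbx2 moved by -0.42 and -0.60 with the Tet1 hairpins and Ezh2 minus Ezh1 by 0.21 and 0.26.

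**Figure D2:**
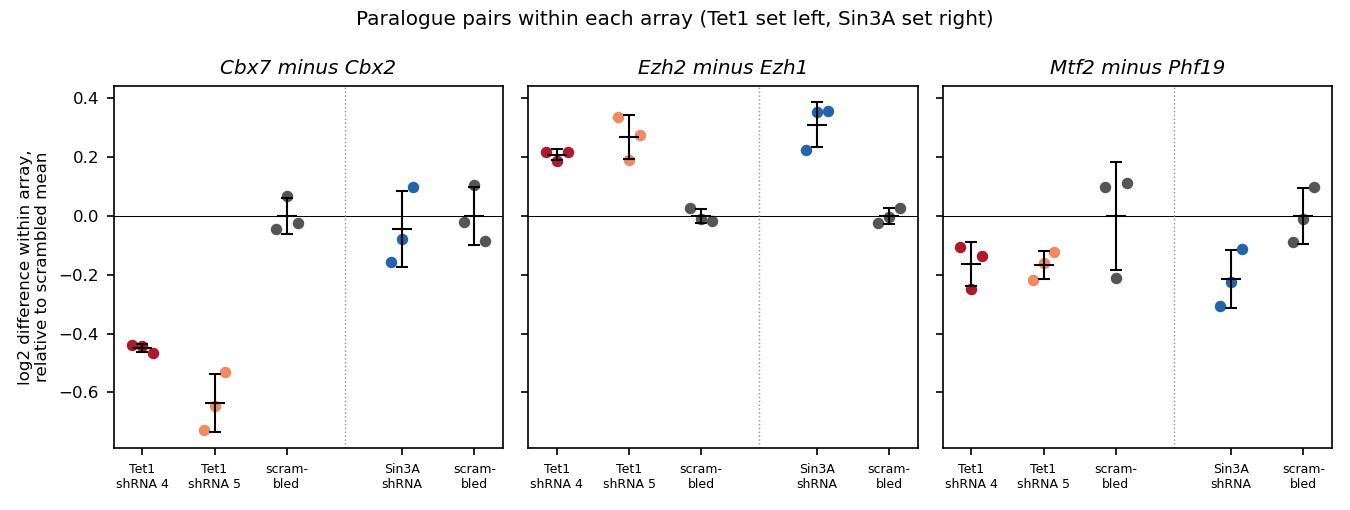
Log2 difference between the levels of paralogues within each array, relative to the mean of the scrambled arrays of the same set (y axis), by group (x axis, knockdowns left of their scrambled arrays), with points for arrays and bars for mean and SD (n = 3). Cbx7 minus Cbx2 drops with both Tet1 hairpins and overlaps with Sin3A shRNA, while Ezh2 minus Ezh1 lies above the scrambled arrays in all 3 knockdowns.

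PHC proteins polymerise through a SAM domain and cluster canonical PRC1, and SCMH1 is a sex-comb-on-midleg homologue that binds them. Phc3 had 8.79, 8.85 and 8.74 with Sin3A shRNA, against 8.31, 8.46 and 8.21 in scrambled arrays. All knockdown arrays were higher, and the change of 1.38-fold (log2 0.47 ± 0.07 SE, limma adjusted p = 0.0028) was the largest of the 32 genes in that comparison and held in all 12 alternatives. In the Tet1 set Phc3 had 7.56, 7.51 and 7.52 with Tet1 shRNA 4 and 7.28, 7.40 and 7.39 with Tet1 shRNA 5, against 7.37, 7.26 and 7.44 in scrambled arrays. Tet1 shRNA 4 lay above the scrambled arrays, by 0.18 ± 0.07 (SE, limma adjusted p = 0.13), and Tet1 shRNA 5 among them, with a change of 0.00 (adjusted p = 0.99). Phc3 was also the only Polycomb gene with an unadjusted p under 0.05 between both hairpins, at a log2 change of -0.18 for Tet1 shRNA 5 against Tet1 shRNA 4 (limma adjusted p = 0.45). Phc1 and Phc2 changed by -0.05 and 0.16 with Tet1 shRNA 4, by -0.14 and 0.10 with Tet1 shRNA 5, and by 0.01 and 0.02 with Sin3A shRNA, and none passed.

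Scmh1 had 8.13, 8.05 and 8.06 with Tet1 shRNA 4 and 8.17, 8.17 and 8.21 with Tet1 shRNA 5, against 8.31, 8.34 and 8.28 in scrambled arrays. With Sin3A shRNA it had 9.03, 8.97 and 8.92, against 9.26, 9.26 and 9.29 in scrambled arrays. All 9 knockdown arrays lay under the scrambled arrays of their set. The fall was 0.30 ± 0.05 on the log2 scale with Sin3A shRNA (SE, limma adjusted p = 0.0042, held in all 12 alternatives) and 0.23 ± 0.05 with Tet1 shRNA 4 (adjusted p = 0.0205), and the Tet1 shRNA 5 value of -0.13 ± 0.05 did not pass (adjusted p = 0.16). The Tet1 shRNA 4 call was lost in 6 of 14 alternatives, among them without its replicate 2 or 3 or scrambled replicate 1, with a limma adjusted p up to 0.0679.

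Variant PRC1 components made up the rest. Yaf2, a RYBP paralogue that replaces it in variant PRC1, had 9.52, 9.58 and 9.41 with Sin3A shRNA, against 9.25, 9.29 and 9.28 in scrambled arrays. The arrays did not overlap and the log2 change was 0.23 ± 0.06 (SE, limma adjusted p = 0.0235), but the call was lost in 6 of 12 alternatives, among them without any scrambled array or without Sin3A shRNA replicate 1 or 2 (limma adjusted p up to 0.0972). Rybp itself changed by 0.04 there. Kdm2b, whose product brings PRC1.1 to unmethylated CG-rich DNA, changed by 0.02, 0.13 and -0.03 with Tet1 shRNA 4, Tet1 shRNA 5 and Sin3A shRNA, and L3mbtl2 by -0.13, -0.01 and -0.02, none of which passed.

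Bcor, the co-repressor subunit of PRC1.1, moved in opposite directions. It had 8.21, 8.17 and 8.25 with Tet1 shRNA 4 and 8.30, 8.42 and 8.36 with Tet1 shRNA 5, against 8.18, 7.94 and 8.16 in scrambled arrays. With Sin3A shRNA it had 8.57, 8.77 and 8.81, against 8.92, 8.94 and 9.01 in scrambled arrays. Tet1 shRNA 5 lay above and Sin3A shRNA below the scrambled arrays, and Tet1 shRNA 4 overlapped them. Bcor rose by 0.27 ± 0.08 (SE) with Tet1 shRNA 5 (adjusted p = 0.0415) and fell by 0.23 ± 0.07 with Sin3A shRNA (SE, limma adjusted p = 0.0495), while with Tet1 shRNA 4 the change was 0.12 (adjusted p = 0.39). Both calls are near the threshold and were lost in 9 of 14 and 7 of 12 alternatives, among them without scrambled replicate 2 or 3 or any Tet1 shRNA 5 array in the Tet1 set (limma adjusted p up to 0.145), and without any scrambled array or Sin3A shRNA replicate 1 or 2 in the Sin3A set (up to 0.137).

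**Figure D3:**
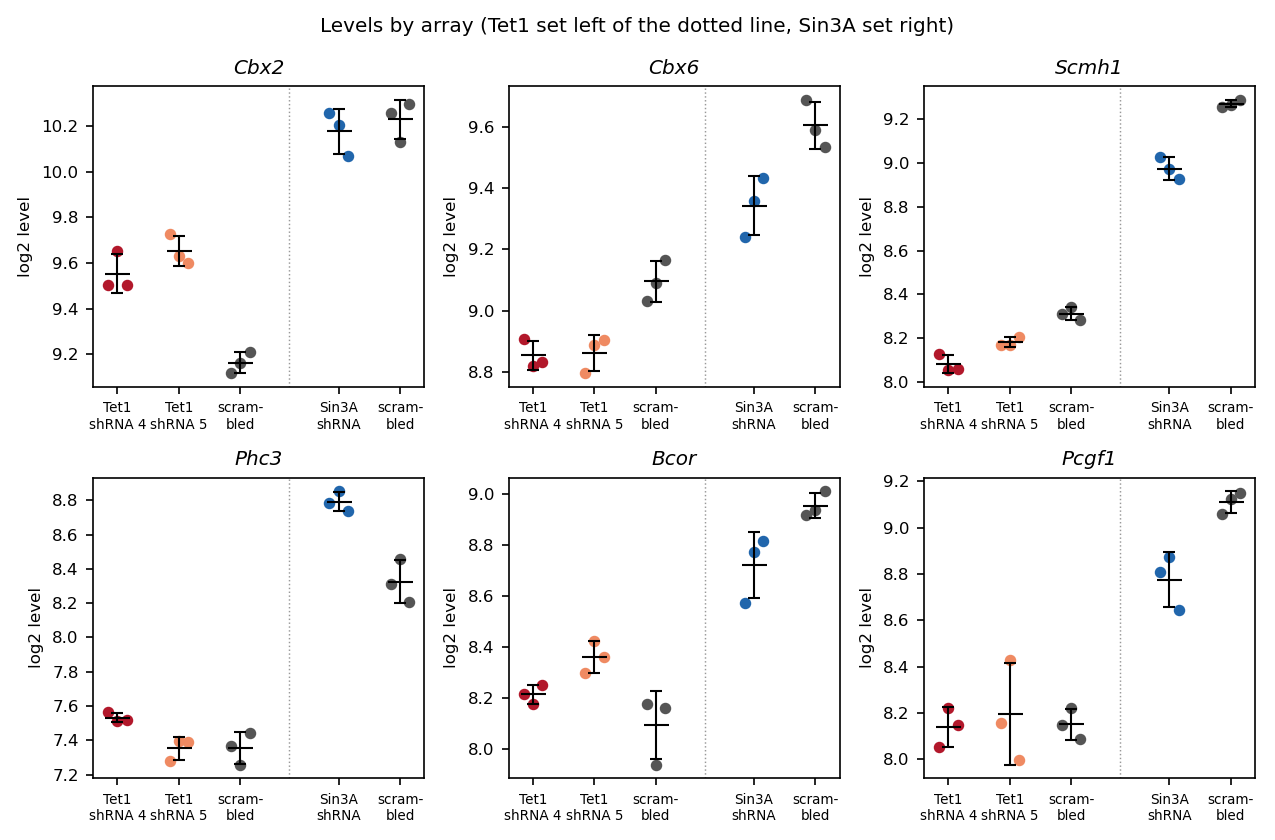
Log2 level (y axis) of 6 Polycomb components in every array, by group (x axis, knockdowns left of their scrambled arrays, sets split by the dotted line), with points for arrays and bars for mean and SD (n = 3). Cbx2 is higher in both Tet1 groups only, and Phc3 is higher and Pcgf1 lower with Sin3A shRNA. Cbx6 and Scmh1 are lower in all 3 knockdowns, though Scmh1 was not called with Tet1 shRNA 5.

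Counted by array, without a test, 2 Polycomb genes lay wholly above and 4 wholly below the scrambled arrays with Tet1 shRNA 4, against 14.1% and 10.9% of all probe sets (25% in either direction). With Tet1 shRNA 5 these were 7 and 5 genes, against 17% and 11.9% (28.9% in either direction), and with Sin3A shRNA 6 and 9 genes, against 20.4% and 20.1%. Without both arrays numbered 2, the genes apart in either direction numbered 18 with Tet1 shRNA 4 and 17 with Tet1 shRNA 5. Fewer arrays overlap less, and the share of all probe sets was not computed there. Between both Tet1 hairpins, Tet1 shRNA 5 lay wholly above Tet1 shRNA 4 for 6 genes and below for 3, which is 18.8% and 9.38% of the 32, against 8.07% and 6.83% of all probe sets. In either direction 28.1% of the 32 stood apart, against 14.9% of all probe sets, with no test of that share. No Polycomb gene was called between the hairpins in limma, where 0.141% of all probe sets were and 0.0849% were lower with Tet1 shRNA 5. In the same test 1 Polycomb gene had an unadjusted p under 0.05, a threshold at which all probe sets were not counted. The median difference of the 32 genes was 0.04, against 0.00 (rounded) over all probe sets.

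The difference between the knockdowns was tested directly, as the mean change of both Tet1 hairpins minus the change with Sin3A shRNA. The sets seem to have been scaled apart from one another, with array means of 7.08 to 7.11 and of 8.09, so the contrast compares changes and no levels. The Tet1 change was above the Sin3A change for 2 of the 32 genes and under it for 3, against 20% of all probe sets called in either direction, 11.3% above and 8.71% under. Cbx2 led, at 0.49 ± 0.09 (SE, limma adjusted p = 0.0012), followed by Bcor at 0.43 ± 0.10 (adjusted p = 0.0067). Phc3, at -0.38 ± 0.09 (adjusted p = 0.0085), was the strongest in the other direction, and these 3 differences held in all 20 alternatives. Yaf2, at -0.30 ± 0.10 (adjusted p = 0.0498), and Pcgf3, at -0.28 ± 0.09 (adjusted p = 0.0355), each lost the call in 12 of 20. For Pcgf3 every array left out did so except scrambled replicate 2 and replicate 2 of both Tet1 hairpins in the Tet1 set and Sin3A shRNA replicate 1 (adjusted p up to 0.0956). For Yaf2 every array did so except scrambled replicate 2, the Tet1 shRNA 4 arrays and Sin3A shRNA replicate 3 (up to 0.132). Cbx6 and Scmh1 differed by 0.02 and 0.12, with 95% intervals of -0.16 to 0.21 and -0.02 to 0.25. Cbx6 had been called lower with each hairpin, but Scmh1 had not been called with Tet1 shRNA 5. Pcgf1 and Pcgf6, which fell with Sin3A shRNA alone by the threshold, differed by 0.35 ± 0.12 and 0.29 ± 0.10, and the test of that difference did not pass (limma adjusted p = 0.061 and 0.052).

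**Figure D4:**
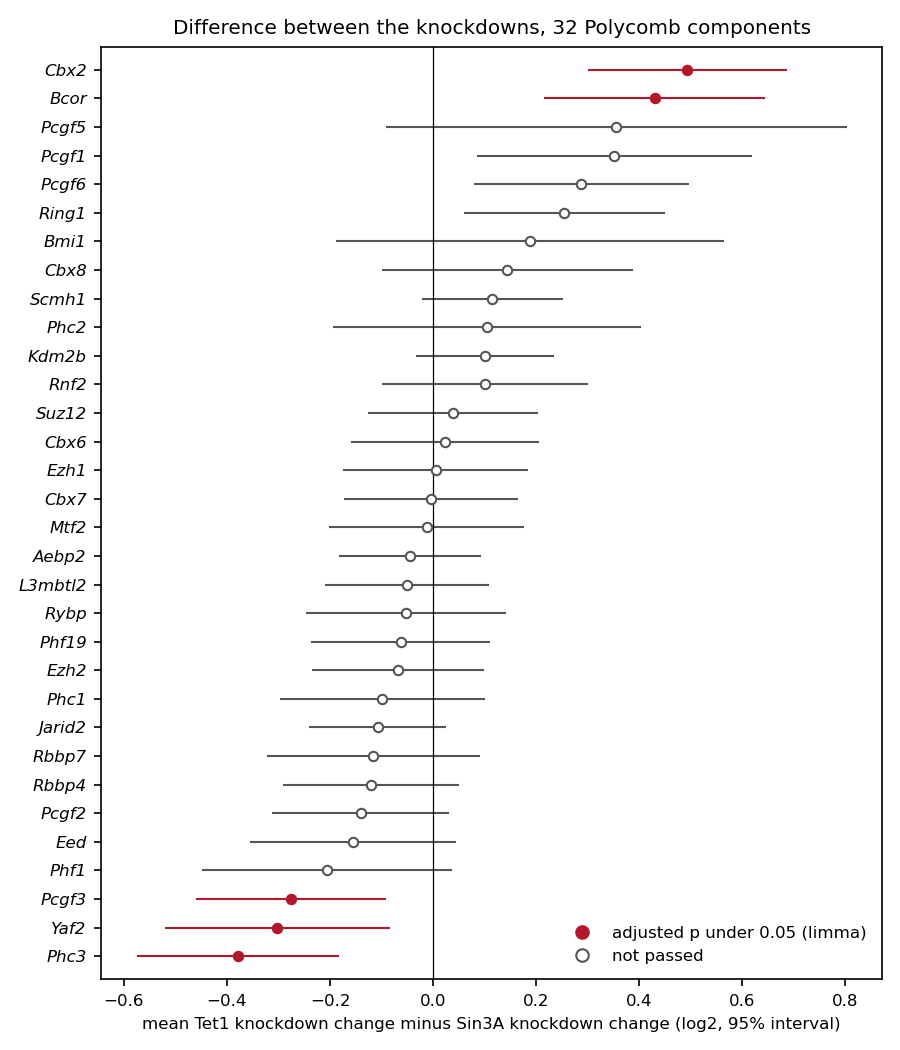
Mean log2 change of both Tet1 knockdowns minus the log2 change of the Sin3A knockdown (x axis, with 95% interval) for each of the 32 Polycomb components (y axis, ordered by value). Filled red points passed in limma: Cbx2 and Bcor on the positive side, and Pcgf3, Yaf2 and Phc3 on the negative side.

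Promoters are shown for Cbx6, Scmh1, Phc3 and Ezh2. Cbx6 was called lower in each knockdown, and Scmh1 with Sin3A shRNA and Tet1 shRNA 4 but not with Tet1 shRNA 5. Phc3 was higher with Sin3A shRNA, and Ezh2 was not called. Each window runs from 250 bases before to 50 bases after the transcript start, in RefSeq (mouse build GRCm38.p6), read 5′ to 3′ on the strand of the gene, with every CG in capitals. Cbx6 is on chr15:79834284-79834583 (minus strand), Scmh1 on chr4:120405098-120405397 (plus strand), Phc3 on chr3:30969366-30969665 (minus strand) and Ezh2 on chr6:47594981-47595280 (minus strand).
Cbx6: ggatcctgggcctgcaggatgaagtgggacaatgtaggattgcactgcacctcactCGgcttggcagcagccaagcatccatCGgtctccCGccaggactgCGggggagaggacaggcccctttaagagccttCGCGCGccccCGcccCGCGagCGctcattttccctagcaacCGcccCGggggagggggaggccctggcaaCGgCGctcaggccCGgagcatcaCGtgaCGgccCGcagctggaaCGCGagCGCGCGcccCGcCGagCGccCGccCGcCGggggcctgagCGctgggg
Scmh1: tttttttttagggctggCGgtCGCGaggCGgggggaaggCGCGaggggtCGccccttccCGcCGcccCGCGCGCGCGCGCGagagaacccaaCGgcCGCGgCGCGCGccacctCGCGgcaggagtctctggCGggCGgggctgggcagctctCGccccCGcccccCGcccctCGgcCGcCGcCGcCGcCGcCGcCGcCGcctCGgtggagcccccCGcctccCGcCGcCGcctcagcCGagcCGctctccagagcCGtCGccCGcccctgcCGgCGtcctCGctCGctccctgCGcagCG
Phc3: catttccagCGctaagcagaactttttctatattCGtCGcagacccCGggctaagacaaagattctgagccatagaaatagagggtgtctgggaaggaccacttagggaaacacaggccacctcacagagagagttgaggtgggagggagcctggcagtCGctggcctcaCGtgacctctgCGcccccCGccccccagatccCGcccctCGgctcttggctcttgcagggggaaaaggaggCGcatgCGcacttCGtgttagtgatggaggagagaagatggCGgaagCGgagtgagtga
Ezh2: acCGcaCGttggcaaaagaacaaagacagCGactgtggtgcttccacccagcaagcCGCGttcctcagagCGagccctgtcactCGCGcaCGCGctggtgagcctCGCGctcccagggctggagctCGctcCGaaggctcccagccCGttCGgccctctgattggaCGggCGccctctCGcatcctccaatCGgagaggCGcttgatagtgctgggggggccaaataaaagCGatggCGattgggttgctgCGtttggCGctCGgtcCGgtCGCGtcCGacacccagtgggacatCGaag

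The 4 windows hold 31, 54, 15 and 31 CG, in the order shown, and 10.6%, 0.35%, 34.6% and 10.6% of all windows hold as many or more. In all, 28 of the 32 genes matched the promoter table, with 41 windows, and Cbx2, Rybp, Yaf2 and Pcgf1 had no entry. The 41 windows had a median of 23 CG, from 0 to 54, against a median of 7 over 32851 windows of 27025 genes. Both ends of that range belong to Scmh1, whose second window, at chr4:120452994-120453293 (plus strand), holds 0 CG. Among genes that were not called, Suz12 had 41 CG, Ring1 37, Pcgf2 10 and Phc1 9, and called and uncalled genes were not compared. Searched on both strands, the E-box letters CACGTG were in 7 of the 41 windows (17.07%), against 7.15% of all windows. These were windows of Cbx6 and Phc3 and of the uncalled Bmi1, Cbx8, Pcgf2, Phc2 and Rbbp4. The E2F-type letters TTCCCGCC were in 2 windows (4.88%), that shown for Scmh1 and 1 of the uncalled Pcgf5, against 2.19% of all. Both motifs contain CG, so they overlap the CG count, and a match describes letters only.

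Other genes of the Polycomb pathway and its opponents were taken from lists of 77 symbols, of which 71 were measured. Of these 71, 7 rose and 7 fell with Tet1 shRNA 4, 10 rose and 12 fell with Tet1 shRNA 5, and 12 rose and 14 fell with Sin3A shRNA. The called shares were 19.7%, 31% and 36.6%, against 11.6%, 13.8% and 24.8% of all probe sets, and these backgrounds apply to each list below. The lists were chosen with earlier results of these data known, so the gap to the background is no test of them. That background holds probe sets of every level, and a share at matched levels was not computed. Without both arrays numbered 2, the Tet1 counts were 5 rising and 7 falling with Tet1 shRNA 4 and 8 rising and 13 falling with Tet1 shRNA 5. The share of all probe sets called in that setting is not given here, and the backgrounds above do not apply to these counts. Among 32 further partners of PRC1 and PRC2, 6 rose and 3 fell, 5 rose and 4 fell, and 4 rose and 6 fell (28.1%, 28.1% and 31.2% called). Bcorl1, the paralogue of Bcor that can replace it in PRC1.1, averaged 8.76 ± 0.03 with Tet1 shRNA 4 and 8.78 ± 0.02 with Tet1 shRNA 5, against 7.88 ± 0.01 in scrambled arrays (SD, n = 3 each). With Sin3A shRNA Bcorl1 averaged 9.79 ± 0.01, against 9.14 ± 0.05 in scrambled arrays. It rose by 0.88, 0.89 and 0.65 (limma adjusted p = 1.1e-05, 1.2e-05 and 0.00014), more than any of the 32 components, and its rise was 0.23 greater with the Tet1 hairpins by the test of the difference.

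Sfmbt2, an MBT-domain relative of the Polycomb proteins that is imprinted in mice, averaged 8.86 ± 0.10 with Tet1 shRNA 4 and 8.91 ± 0.09 with Tet1 shRNA 5, against 10.10 ± 0.14 in scrambled arrays (SD, n = 3 each). With Sin3A shRNA Sfmbt2 averaged 9.77 ± 0.03, against 10.41 ± 0.12 in scrambled arrays. Its log2 changes were -1.24, -1.19 and -0.64 (limma adjusted p = 3e-05, 4.6e-05 and 0.0006). The deubiquitinase gene Usp26 changed by -1.07, -1.21 and -0.55. Wdr5, which presents histone H3 to MLL complexes and also sits in PRC1.6, rose by 0.50 and 0.49 with the Tet1 hairpins (limma adjusted p = 0.0024 and 0.0025). Dcaf7, a partner of PCGF3 and PCGF5, rose by 0.31, 0.31 and 0.36, and its Tet1 calls were lost in 5 and 3 of 14 alternatives, among them without scrambled replicate 1 (limma adjusted p up to 0.0858). Usp11, a deubiquitinase reported to bind PRC1 subunits in human cells, fell by 0.81 with Sin3A shRNA and rose by 0.27 with Tet1 shRNA 4, where the call was lost without any scrambled array and in 9 of 14 alternatives in all (limma adjusted p up to 0.15). Tfdp1, the E2F partner found with E2F6 in PRC1.6, fell by 0.55 with Sin3A shRNA and rose by 0.23 with Tet1 shRNA 5. The Tet1 shRNA 5 call of Tfdp1 was lost in 7 of 14 alternatives (limma adjusted p up to 0.0926). The difference between the knockdowns passed for Tfdp1 (0.71).

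Of 15 genes linked to H2A deubiquitination, which removes the PRC1 mark, 0 rose and 2 fell with Tet1 shRNA 4, 2 rose and 3 fell with Tet1 shRNA 5, and 3 rose and 3 fell with Sin3A shRNA (13.3%, 33.3% and 40% called). Mbd6, which binds the PR-DUB complex, fell by 0.48 and 0.70 with the Tet1 hairpins. Usp22, of the SAGA deubiquitinase module, fell by 0.42 and 0.32 with the Tet1 hairpins and rose by 0.27 with Sin3A shRNA, and that difference passed (-0.64). Bap1, the PR-DUB catalytic subunit, fell by 0.29 with Sin3A shRNA, and the PR-DUB scaffold gene Asxl3 rose by 0.50. With Tet1 shRNA 5 Bap1 rose by 0.23, a call lost in 10 of 14 alternatives (limma adjusted p up to 0.155). The difference between the knockdowns passed for Bap1 (0.44). Among 3 genes of the H3K27 demethylase family, Kdm6a fell by 0.30 and 0.25 and Uty by 0.61 and 0.61 with the Tet1 hairpins. With Sin3A shRNA Uty fell by 0.45 and Kdm6b rose by 0.44. The Kdm6a and Uty calls in the Tet1 set were lost without scrambled replicate 1 or 3, among other arrays (limma adjusted p up to 0.138 and 0.0861), and that of Uty with Sin3A shRNA without its replicate 2 (0.0539).

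Among 17 genes of the MLL and COMPASS complexes, which methylate lysine 4 of histone H3 and oppose Polycomb silencing, 1 rose and 0 fell with Tet1 shRNA 4, 3 rose and 3 fell with Tet1 shRNA 5, and 2 rose and 4 fell with Sin3A shRNA (5.88%, 35.3% and 35.3% called). The MLL3 and MLL4 co-activator gene Ncoa6 rose in all 3 knockdowns, by 0.56, 0.40 and 0.20, though the last call was lost in 7 of 12 alternatives, among them without any Sin3A shRNA array or without scrambled replicate 1 or 3 (limma adjusted p up to 0.128). Kmt2c, which encodes MLL3, rose by 0.55 with Sin3A shRNA and fell by 0.30 with Tet1 shRNA 5, and the difference between the knockdowns passed (-0.76). The Tet1 shRNA 5 call was lost in 7 of 14 alternatives, among them without its replicate 1 or 2 or scrambled replicate 1 or 3 (limma adjusted p up to 0.158). Kmt2a and Kmt2d changed by -0.37 and -0.35 with Tet1 shRNA 5, calls lost in 4 and 3 of 14 alternatives. Their differences between the knockdowns also passed (-0.41 and -0.38) and held in all 20 alternatives. In that test 4 of the 17 genes were above and 3 under (41.2% called), against 20% of all probe sets called. Of 4 H3K36 methyltransferase genes, Setd2 and Nsd2 rose with Sin3A shRNA, by 0.26 and 0.27, and none was called with the Tet1 hairpins.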

How the data were processed

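Per the labels' protocols, RNA of 15 samples went through the Affymetrix Whole Transcript Assay and onto 1 array each. Groups and replicate numbers came from the sample titles. The deposited table holds log2 expression values for 21212 probe sets, and the submitters' processing notes name affy, RMA and limma, with versions and settings not given in the sources used here. Means over an array differed between the sets (7.08 to 7.11 for Tet1, 8.09 for Sin3A), so levels were compared only within a set. The number of arrays limits the precision.

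Symbols came from the platform annotation (1 symbol for 18786 probe sets, several for 6, none for 2420), and promoters from RefSeq (GRCm38.p6). No genome or protein sequence was used. The tool for all tests on the deposited values was limma (version 3.58.1, under R 4.3.3), with two-sided moderated tests from lmFit and eBayes and a Benjamini-Hochberg threshold of 0.05 over all probe sets: the Tet1 set with 3 group means, the Sin3A set on its own, and all 15 arrays for the difference between knockdowns. The scripts were tested on simulated data.

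The 32 members and all gene lists were chosen with earlier results of these data known. Every member is named, and of the other lists the text draws on up to 3 highest and 3 lowest genes past the threshold per comparison. Alternatives were another scaling, a filter on dim probe sets, another variance prior, other arrays in the fit, the replicate block and each replicate left out. A member called in neither setting was counted as unchanged whatever its sign. A pairing of replicate numbers was checked. Samples of the same number deviated together (correlation over 0.1) in 3 of 9 pairs in the Tet1 set. In the Sin3A set 0 of 3 did. All 3 were pairs of scrambled and Tet1 shRNA 4 arrays (r = 0.274, 0.517 and 0.171). Between these groups, arrays of other numbers reached 0.281. The numbers were not taken to pair samples, and with the replicate block only Cbx2 stayed called with Tet1 shRNA 4.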

Additional observations from a re-analysis of the deposited data

Results flagged for a closer look

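For 5 Polycomb components the change in the Tet1 knockdowns differed from the change in the Sin3A knockdown by the limma test of the difference itself, over 15 arrays. That is 15.6% of the 32 genes, against 20% of all probe sets called in the same test. The difference (mean Tet1 change minus Sin3A change, log2) was 0.493 for Cbx2 and 0.430 for Bcor, and -0.379 for Phc3, -0.302 for Yaf2 and -0.275 for Pcgf3. For Cbx2 only the Tet1 hairpins gave a call, at 0.39 and 0.49, against -0.05 with Sin3A shRNA. Phc3 was called with Sin3A shRNA, at 0.47, against 0.18 and 0.00 with the Tet1 hairpins. For Bcor the knockdowns were on opposite sides of no change, at 0.12 and 0.27 with the Tet1 hairpins and -0.23 with Sin3A shRNA. Yaf2 had -0.14 and 0.00 with the Tet1 hairpins and 0.23 with Sin3A shRNA, and Pcgf3 had -0.23 and -0.07, against 0.13. The differences of Yaf2 and Pcgf3 lie near the threshold, and each lost its call in 12 of 20 alternatives. Each set had its own scrambled arrays, and the sets appear to have been normalized separately, so set and knockdown cannot be told apart.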

How the results depend on the processing

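Over the 32 genes, 5 comparisons and all alternatives, 2163 values kept their side of the threshold, 75 lost a call, 34 gained one and 0 reversed. The 3 calls with Tet1 shRNA 4 became 1 with the replicate block and 1 with only the compared groups in the fit (1 to 4 with a replicate left out, 1 without Tet1 shRNA 4 replicate 2 or 3). The 3 calls with Tet1 shRNA 5 became 1 with the replicate block, 1 with only the compared groups and 5 in the fit of all 15 arrays (1 to 4 with a replicate left out, 1 without scrambled replicate 3 or any Tet1 shRNA 5 array). The call left under the block and in the narrower fit was Cbx2 for each hairpin. The 7 calls with Sin3A shRNA became 3 (Pcgf1, Phc3 and Scmh1) with the replicate block and 12 with an intensity trend and robust prior (3 to 7 with a replicate left out, 3 without Sin3A shRNA replicate 2 and 4 without scrambled replicate 1 or 2). The 5 differences between the knockdowns became 8 without the dimmest probe sets (fraction 0.25) and ran from 3 to 7 with a replicate left out, with 3 without scrambled replicate 3 or Tet1 shRNA 5 replicate 1 of the Tet1 set, or without any scrambled array or Sin3A shRNA replicate 2 of the Sin3A set. Between the Tet1 hairpins the count stayed 0 in all alternatives run. The share of all probe sets called in each alternative is not given here. These counts therefore do not show whether the Polycomb genes moved apart from all probe sets. Without both arrays numbered 2, genes with groups apart numbered 18 with Tet1 shRNA 4 (main 6) and 17 with Tet1 shRNA 5 (main 12). With a replicate left out they numbered 8 to 12, 13 to 17, 15 to 20 with Sin3A shRNA (main 15) and 9 to 15 between the Tet1 hairpins (main 9), since fewer arrays overlap less. The share of all probe sets with groups apart was not computed in these settings, so the counts have no background. The cause of the other moves was not tested. The average over several probe sets was not run, as each member has 1.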
